A study of Mus musculus with 52 samples.

Results

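The transcripts described here are 9 genes that mark the fibroblasts of the meninges and the mural cells of vessels, followed through 52 mouse frontal cortex libraries. They were chosen by name from the 15692 genes of the deposited count table, and all 9 are in it. Col1a1, Col1a2 and Col3a1 encode chains of the fibrillar collagens of types I and III. Dcn, Igf2, Slc6a13 and Bgn are further genes of meningeal fibroblasts. Pdgfrb and Acta2 stand for the mural cells. All 9 were among the 15195 genes that passed the filter on low counts and were tested.

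The meninges cover the cortex, and their innermost layer follows vessels into the tissue as perivascular fibroblasts. These cells lay down fibrillar collagen and the small proteoglycans that bind it, secrete growth factors into the cerebrospinal fluid and carry solute transporters. Mural cells wrap the vessel wall: contractile smooth muscle surrounds arteries and arterioles, and pericytes surround capillaries throughout the tissue. Pdgfrb, the receptor for platelet-derived growth factor B, is made by pericytes and smooth muscle and also by perivascular fibroblasts. Acta2, smooth muscle actin, is made mainly by arterial and arteriolar smooth muscle.

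The study asked how diet, APOE genotype and sex bear on brain gene expression in mice with amyloid plaques. Each library came from 1 animal. All animals carried the APP/PS1ΔE9 transgenes, a plaque model, and had mouse Apoe replaced on both alleles by human APOE4 (APP/E4) or human APOE3 (APP/E3). The high-fat diet (HFD) was a Western diet in which fat gave 40%, carbohydrate 42.6% and protein 16.8% of the calories, and the other mice ate a normal diet (ND). There were 7 APP/E4 HFD females, 5 APP/E4 HFD males, 7 APP/E4 ND females, 6 APP/E4 ND males, 8 APP/E3 HFD females, 6 APP/E3 HFD males, 7 APP/E3 ND females and 6 APP/E3 ND males. Feeding lasted 3 months from an average age of 3.5 months, and behaviour was tested when mice averaged 14.7 months, per the labels' protocols, which do not say how these ages relate. No animal without the APP transgenes was analysed here. Animals were perfused, and the labels do not say whether the pia stayed on each cortex sample.

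The promoters of 6 of the 9 genes were in the RefSeq promoter table for GRCm38.p6, each covering 250 bases before and 50 after an annotated start. Of these, Igf2 had 4 starts, Slc6a13 had 3, and Col1a2, Col3a1, Bgn and Acta2 had 1 each. Only the promoters of the 4 genes with a single start are printed, and a link between their letters and the levels below was not tested. They lie at chr6:4505368-4505667 (plus strand) for Col1a2, chr1:45311288-45311587 (plus) for Col3a1, chrX:73483351-73483650 (plus) for Bgn and chr19:34255324-34255623 (minus) for Acta2. Capitals mark every match on either strand to the CCAAT box, to the letters TATAA of a TATA box or to the GC box GGGCGG. On the opposite strand these read ATTGG for the first, TTATA for the next and CCGCCC for the last.
Col1a2: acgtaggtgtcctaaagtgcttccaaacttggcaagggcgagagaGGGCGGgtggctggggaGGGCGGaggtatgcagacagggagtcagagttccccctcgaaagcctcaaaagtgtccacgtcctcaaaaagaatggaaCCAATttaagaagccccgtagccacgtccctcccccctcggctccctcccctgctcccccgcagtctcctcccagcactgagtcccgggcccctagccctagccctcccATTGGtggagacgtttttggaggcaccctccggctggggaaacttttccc
Col3a1: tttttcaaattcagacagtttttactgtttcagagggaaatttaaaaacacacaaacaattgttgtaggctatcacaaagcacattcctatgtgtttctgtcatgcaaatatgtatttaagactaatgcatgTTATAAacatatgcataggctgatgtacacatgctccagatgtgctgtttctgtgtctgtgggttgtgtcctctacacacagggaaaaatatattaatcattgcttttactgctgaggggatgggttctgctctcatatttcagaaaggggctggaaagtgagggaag
Bgn: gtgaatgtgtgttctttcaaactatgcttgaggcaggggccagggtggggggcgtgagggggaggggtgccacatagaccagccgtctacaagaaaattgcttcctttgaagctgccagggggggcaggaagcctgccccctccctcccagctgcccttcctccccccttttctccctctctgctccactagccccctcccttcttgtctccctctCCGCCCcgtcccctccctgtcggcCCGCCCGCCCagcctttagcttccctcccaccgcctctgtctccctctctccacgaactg
Acta2: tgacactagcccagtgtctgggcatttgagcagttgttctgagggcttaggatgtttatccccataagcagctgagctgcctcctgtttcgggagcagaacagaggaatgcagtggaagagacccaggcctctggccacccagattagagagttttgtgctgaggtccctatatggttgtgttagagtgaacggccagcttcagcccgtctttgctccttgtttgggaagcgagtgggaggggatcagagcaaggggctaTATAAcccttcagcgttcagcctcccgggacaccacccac
In the Col1a2 window CCAAT began at base 142, ATTGG at base 251, which is the start itself, and GGGCGG at bases 46 and 63. Among all 32851 promoters in the table, 37.4% held CCAAT, 35.7% held GGGCGG and 24.9% held TATAA, on either strand. The Col3a1 window held TTATA at base 133 and TATAA at base 134, which overlap, and neither of the other motifs. In the Bgn window CCGCCC began at bases 217, 241 and 245, where the last 2 overlap, and Acta2 held TATAA at base 261. No motif was common to all 4 windows. A match is a description of letters and not a binding site, and no match says only that these letters are not in this window.

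Total counts were 5.34 to 13.1 M per library, except 39.4 M in APP/E3 ND male 5. Levels are given as CPM, counts per 1 M of a library total scaled by TMM, a normalisation that equalises most genes between libraries. At these depths 3 counts correspond to 0.0762 to 0.561 CPM, which covers counting error only. Some libraries stood apart in either of 2 ways. First, 11 libraries, all from females, had Csl at 0.094 to 1.14 CPM against 10.8 to 18.3 CPM in the other 41, and Rps10 at 17.9 to 24.9 CPM against 1.49 to 5.96 CPM. They are called Csl-low libraries, and 2 were APP/E4 HFD, 2 APP/E4 ND, 5 APP/E3 HFD and 2 APP/E3 ND. The rule, Csl under 5 CPM, was set on these data, and the labels name no batch. Second, 5 libraries held Ttr (choroid plexus) or Omp (olfactory neurons) above 100 CPM. In the labels, the title of every female library carried a sex letter, and the titles of most male libraries did not. The summed level of 10 neuron markers was 10500 to 15180 CPM in every library.

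Fibroblast transcripts varied widely between animals of 1 group. Their sum over the 7 fibroblast genes had a lowest, median and highest value of 40.2, 145.7 and 394.8 CPM over all 52 libraries, a range of 9.83-fold. The highest sums were in APP/E3 ND female 6, APP/E3 HFD female 6 at 348.5 CPM and APP/E3 ND female 3 at 290.4 CPM. The lowest were in APP/E3 HFD female 1, APP/E3 ND male 4 at 46.5 CPM and APP/E4 HFD female 1 at 54.2 CPM. High and low libraries thus occurred within the same group: the 8 APP/E3 HFD females spanned 40.2 to 348.5 CPM, and the 6 APP/E3 ND males 46.5 to 190.6 CPM. In tissue RNA, fewer fibroblasts in a sample and less RNA per fibroblast cannot be told apart.

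Col1a1 encodes the alpha 1 chain of type I collagen, the chief fibre of the meninges. In HFD females, Col1a1 had a lowest, median and highest level of 2.24, 7.71 and 14.2 CPM in 7 APP/E4 libraries, against 2.59, 10.2 and 17.5 CPM in 8 APP/E3 libraries. In HFD males, Col1a1 was at 9.30, 9.75, 9.62, 7.04 and 3.31 CPM in the 5 APP/E4 libraries, against 4.37, 6.09 and 8.41 CPM (lowest, median, highest of 6) in APP/E3. Both pairs of groups overlapped. In ND females, Col1a1 was at 2.53, 6.57 and 8.75 CPM (of 7) in APP/E4, against 4.92, 11.2 and 34.6 CPM (of 7) in APP/E3. In ND males, Col1a1 was at 3.93, 5.88 and 13.7 CPM (of 6) in APP/E4, against 1.70, 6.85 and 18.6 CPM (of 6) in APP/E3. The APP/E3 ND females reached higher than any other group, through females 6, 3 and 7 at 34.6, 34.2 and 22.5 CPM. Of their other libraries, those at 4.92 and 8.22 CPM lay within the range of APP/E4 ND females, and those at 9.08 and 11.2 CPM above it.

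The partner chain Col1a2 ranged from 5.85 CPM in APP/E4 ND female 7 to 63.8 CPM in APP/E3 ND female 6, with a median of 20.6 CPM. Col3a1, the only chain of type III collagen, ranged from 0.399 CPM in APP/E3 ND male 4 to 13.4 CPM in APP/E3 ND female 3, with a median of 2.65 CPM. Its low libraries were close to the level of 3 counts, so its lower values are the least precise of the 9. APP/E3 ND male 4 was the lowest library for Col1a1 as well as Col3a1, and APP/E3 ND female 6 the highest for Col1a1 as well as Col1a2.

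Dcn encodes decorin, a small proteoglycan that binds collagen fibrils. In females on HFD, Dcn had a lowest, median and highest level of 4.58, 14.1 and 31.9 CPM in APP/E4 and 3.45, 23.0 and 47.6 CPM in APP/E3. In males on HFD, Dcn was at 18.04, 20.7, 11.3, 8.86 and 9.51 CPM in the 5 APP/E4 libraries and 8.02, 9.28 and 15.02 CPM in APP/E3. The APP/E3 females on HFD spanned a 13.8-fold range and the APP/E3 males on HFD a 1.87-fold range. In females on ND, Dcn was at 7.68, 10.7 and 38.7 CPM in APP/E4 and 7.39, 14.8 and 56.9 CPM in APP/E3. In males on ND, Dcn was at 5.18, 13.5 and 24.8 CPM in APP/E4 and 3.79, 7.10 and 37.4 CPM in APP/E3. All of these groups overlapped. Bgn, which encodes the related proteoglycan biglycan, ranged only from 6.78 CPM in APP/E3 ND male 4 to 43.5 CPM in APP/E4 HFD female 4.

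Igf2 encodes insulin-like growth factor 2, which meninges and choroid plexus release. Among HFD females, Igf2 had a lowest, median and highest level of 25.2, 80.0 and 105.0 CPM in APP/E4 and 14.2, 92.7 and 209.1 CPM in APP/E3. Among HFD males, Igf2 was at 97.5, 117.6, 52.03, 71.5 and 47.9 CPM in the 5 APP/E4 libraries and 41.4, 55.1 and 88.6 CPM in APP/E3. The top value came from APP/E3 HFD female 6, which also held Ttr at 2390 CPM, and the lowest from APP/E3 HFD female 1 of the same group. Among ND females, Igf2 was at 29.6, 60.5 and 94.8 CPM in APP/E4 and 39.6, 85.0 and 173.1 CPM in APP/E3. Among ND males, Igf2 was at 32.9, 74.8 and 97.0 CPM in APP/E4 and 17.3, 49.9 and 70.8 CPM in APP/E3. The antisense gene Igf2os overlaps Igf2, and since no source used here gives the strand setting, reads from the pair cannot be told apart. Slc6a13, a transporter of GABA and taurine in the leptomeninges, ranged from 1.80 CPM in APP/E3 ND male 4 to 33.5 CPM in APP/E3 ND female 6.

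The 2 mural genes behaved differently from each other. Pdgfrb was almost level: over 52 libraries it ranged only from 21.8 to 37.1 CPM, a 1.70-fold range, against 8.08-fold for Acta2 and 6.41-fold (Bgn) to 33.6-fold (Col3a1) for the fibroblast genes. In HFD mice, Pdgfrb was at 27.3, 30.5 and 35.4 CPM (lowest, median, highest) in APP/E4 females and 23.3, 29.2 and 36.2 CPM in APP/E3 females. For HFD males the 5 APP/E4 libraries had Pdgfrb at 25.2, 29.4, 29.3, 29.9 and 25.2 CPM, and the APP/E3 libraries 21.8, 26.3 and 33.5 CPM. Every pair of groups overlapped here too. In ND mice, Pdgfrb was at 22.5, 26.3 and 36.9 CPM in APP/E4 females and 25.3, 29.3 and 37.1 CPM in APP/E3 females. In ND males it was at 25.5, 28.6 and 30.4 CPM in APP/E4 and 26.1, 28.6 and 36.9 CPM in APP/E3. Its 8 group medians thus lay between 26.3 and 30.5 CPM.

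Acta2 spread like a fibroblast gene. In HFD mice, Acta2 was at 4.59, 7.75 and 12.9 CPM in APP/E4 females and 3.64, 8.95 and 23.8 CPM in APP/E3 females. For HFD males the 5 APP/E4 libraries had Acta2 at 11.1, 19.4, 6.83, 9.77 and 5.13 CPM, and the APP/E3 libraries 3.40, 6.11 and 13.4 CPM. The highest library of a group was 2.11 times (APP/E4 ND females) to 6.54 times (APP/E3 HFD females) its lowest. In ND mice, Acta2 was at 4.21, 6.02 and 8.87 CPM in APP/E4 females and 4.60, 9.22 and 27.5 CPM in APP/E3 females. In ND males it was at 5.37, 8.97 and 18.8 CPM in APP/E4 and 3.53, 5.71 and 12.8 CPM in APP/E3. The highest values were in APP/E3 ND female 3, APP/E3 HFD female 6 and APP/E3 ND female 6, the libraries with high fibroblast sums. Acta2 is close in sequence to other actins, and no source used here says how reads that match several genes were counted, so its level is uncertain.

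**Figure D1:**
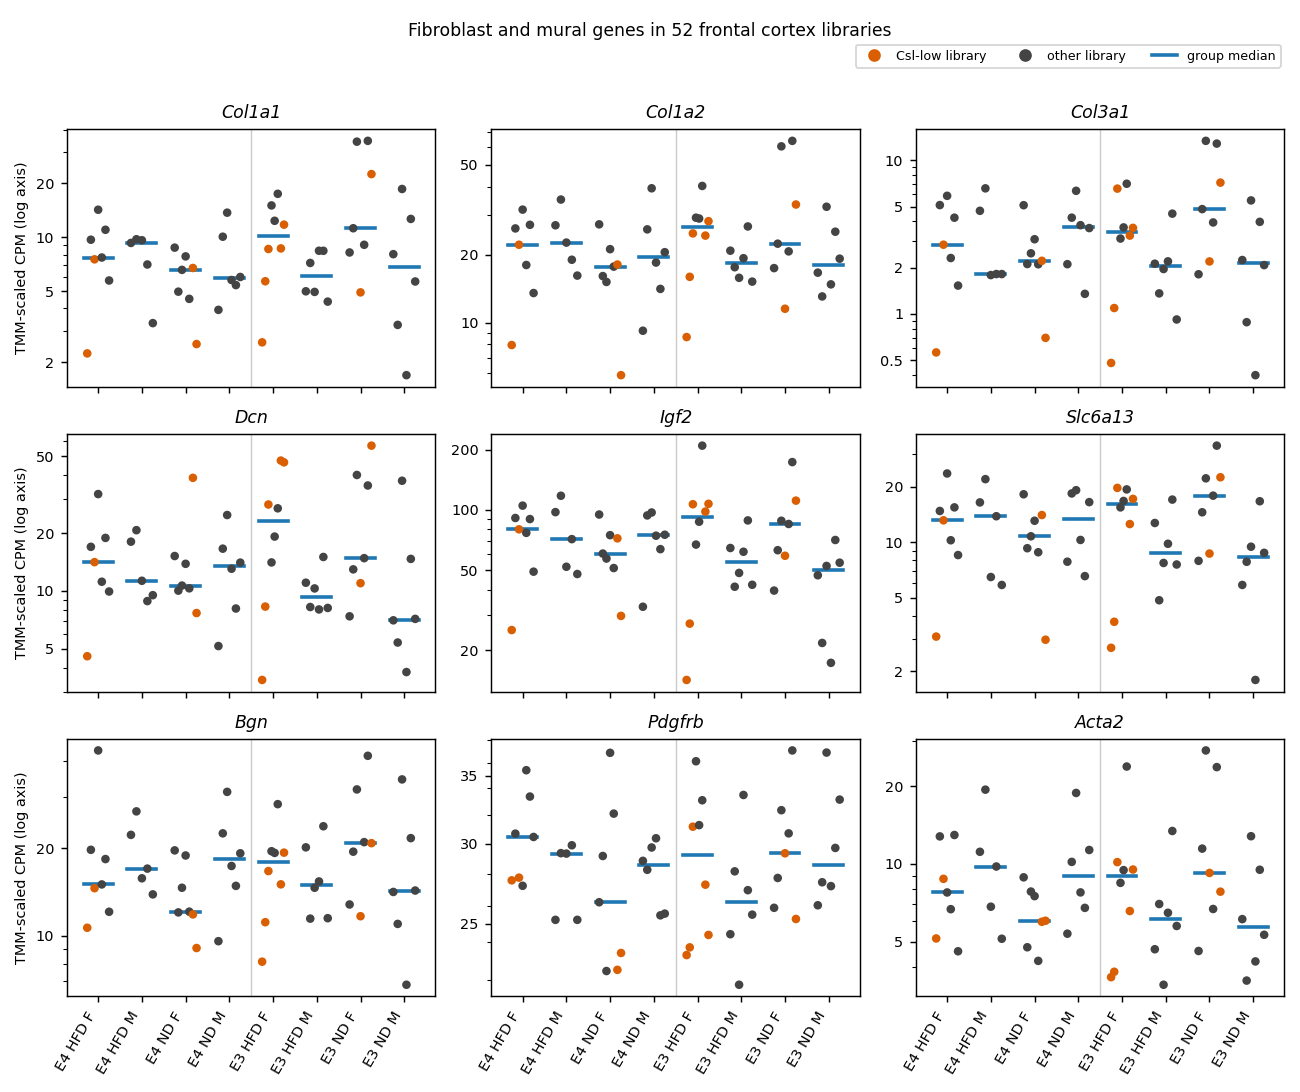
Each panel shows 1 gene, with a point for each of the 52 libraries (TMM-scaled CPM, log axis), in 8 groups by genotype (E4 is APP/E4, E3 is APP/E3), diet and sex (F female, M male), and a bar at the group median. Orange marks the 11 Csl-low libraries. The vertical axes differ: Pdgfrb spans 21.8 to 37.1 CPM, while Col3a1 spans 0.399 to 13.4 CPM, and all groups overlap.

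The order of the group medians differed between genes and was not an order of separate groups, since neighbours in it overlapped in every gene. APP/E3 ND females had the highest median of Col1a1 at 11.2 CPM, Col3a1 at 4.82 CPM, Slc6a13 at 17.9 CPM and Bgn at 20.9 CPM. APP/E3 HFD females had the highest median of Col1a2 at 26.5 CPM, Dcn at 23.0 CPM and Igf2 at 92.7 CPM. The lowest medians of Dcn, Igf2, Slc6a13 and Acta2 were all in APP/E3 ND males, at 7.10, 49.9, 8.31 and 5.71 CPM. For Acta2 the highest median was in APP/E4 HFD males at 9.77 CPM.

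Levels can be set beside each other between genes only per length. Per kilobase of merged exons (GENCODE vM21, which is not the annotation the counts were made on), the median level over 52 libraries was 13.1 CPM per kb for Igf2, 6.71 for Bgn, 6.70 for Dcn and 5.66 for Slc6a13. On the same scale Pdgfrb had 5.15, Col1a2 3.85, Acta2 3.75, Col1a1 1.34 and Col3a1 0.477 CPM per kb. Per length, type I collagen was therefore represented more by its alpha 2 chain than by its alpha 1 chain, with log2 Col1a1 minus log2 Col1a2 in CPM at -1.40 ± 0.40 (SD, n = 52 libraries).

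The spread between animals of a group was measured as the biological coefficient of variation from the edgeR fit, which removes counting noise. It was 62.1% for Col3a1, 60.7% for Dcn, 52.7% for Slc6a13, 52.4% for Col1a1, 47.3% for Igf2, 42.0% for Col1a2 and 38.5% for Bgn. The median over the 15195 genes tested was 12.3%, and 11.5% over the 9183 genes within the same range of mean CPM. The 7 fibroblast genes lay at the 94.2 to 97.9 percentile of all genes tested. Acta2 had 47.2%, at the 96.2 percentile, and Pdgfrb 12.5%, at the 51.1 percentile. Differences between the 8 groups made up 10.6% (Bgn) to 21.3% (Col1a1) of the variance of log2 CPM in the 9 genes, where 13.7% is the share that 8 groups take on average with no group difference.

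**Figure D2:**
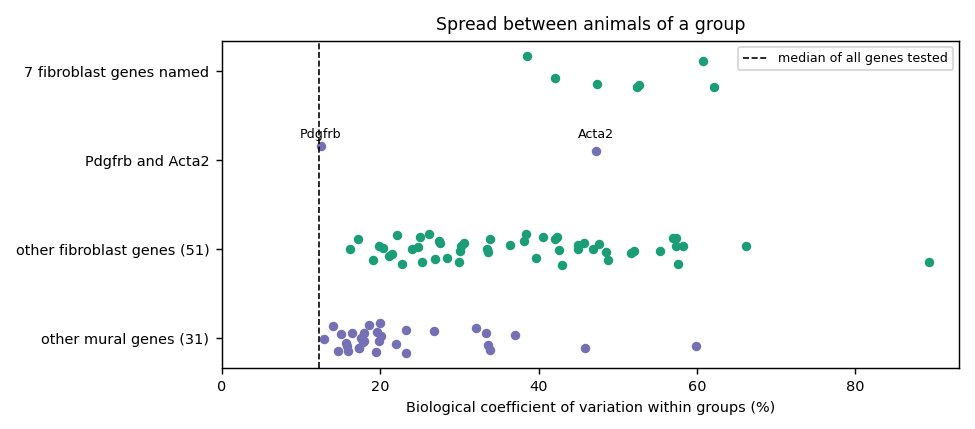
The biological coefficient of variation within groups (%, horizontal axis) is shown with 1 point per gene for the 7 fibroblast genes, for Pdgfrb and Acta2, and for the 51 other fibroblast and 31 other mural genes tested. The dashed line is the median of all genes tested, 12.3%. The 7 fibroblast genes lie at 38.5% to 62.1%, Acta2 at 47.2% and Pdgfrb beside the dashed line at 12.5%.

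The fibroblast genes moved together from library to library. The correlation of log2 CPM over 52 libraries was computed for all 36 pairs of the 9 genes, each with a 100000-resample permutation test, two-sided, adjusted by Benjamini-Hochberg over the 36 pairs. All 21 pairs among the 7 fibroblast genes had an adjusted p under 0.05, with Pearson's r from 0.74 to 0.908 and Spearman's rho from 0.752 to 0.921. The largest adjusted p of these pairs, 1.29e-05, came from 1e-05, the smallest p that the permutations can give. Without the 2 libraries farthest from the median of the gene on the x axis, r was 0.724 to 0.91. The tightest pair within the collagens was Col1a1 with Col1a2, with r = 0.899, rho = 0.921 and an adjusted p of 1.29e-05 for each by permutation.

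Acta2 moved with the fibroblast genes and Pdgfrb less so. Acta2 against the 7 fibroblast genes gave r from 0.649 (Dcn) to 0.82 (Col3a1) and rho from 0.712 to 0.828, with 7 of 7 adjusted permutation p under 0.05 and an r of 0.689 to 0.812 without the 2 farthest libraries. Pdgfrb against the same 7 genes gave r from 0.204 (Dcn) to 0.458 (Col1a1) and rho from 0.235 to 0.431, and 6 of 7 had an adjusted p under 0.05. The exception was Dcn with Pdgfrb, at an adjusted p of 0.146 for r and 0.0939 for rho by permutation. Pdgfrb with Acta2 gave r = 0.438 (adjusted p = 0.00137) and rho = 0.398 (adjusted p = 0.00412) by permutation, and r = 0.36 without the 2 farthest libraries. The difference between the correlations of Acta2 and those of Pdgfrb was not tested.

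Within the 41 libraries that were not Csl-low, the 21 fibroblast pairs had r from 0.74 to 0.936, the 7 Acta2 pairs 0.722 to 0.861 and the 7 Pdgfrb pairs 0.295 to 0.5, with adjusted permutation p under 0.05 in 21, 7 and 6 of them. Within the 11 Csl-low libraries the 21 fibroblast pairs had r from 0.852 to 0.968 and all passed, the Acta2 pairs had 0.546 to 0.846 with 4 of 7 passing, and the Pdgfrb pairs had 0.095 to 0.431 with 0 of 7 passing.

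**Figure D3:**
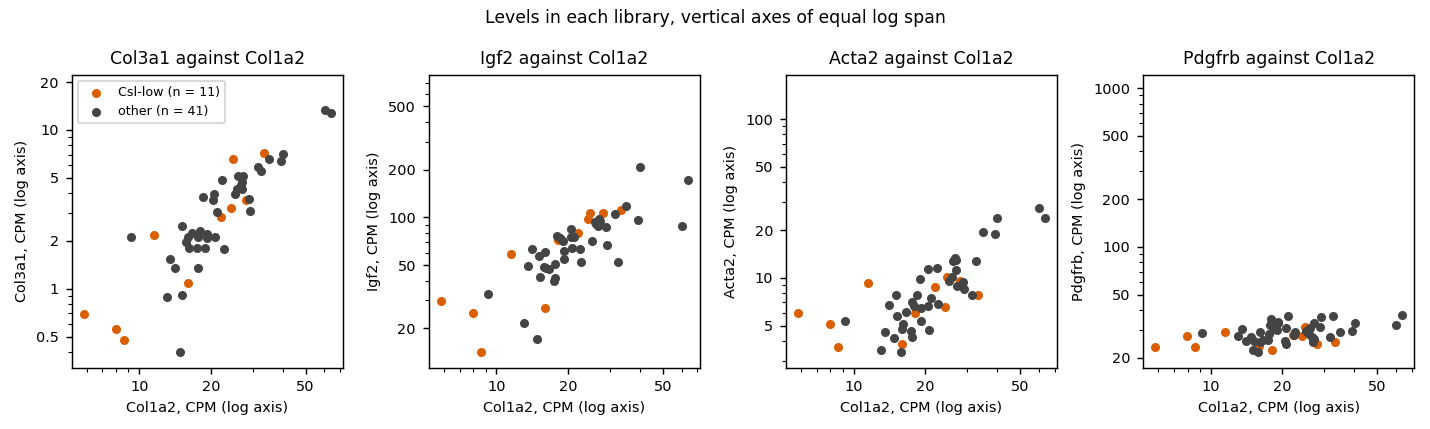
Each point is a library, with Col1a2 on the horizontal and Col3a1, Igf2, Acta2 or Pdgfrb on the vertical axis (CPM, log axes, all vertical axes of equal log span). Orange marks the 11 Csl-low and grey the other 41 libraries. Col3a1, Igf2 and Acta2 climb with Col1a2, while Pdgfrb stays between 21.8 and 37.1 CPM across the whole Col1a2 range.

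Genotype was compared first, APP/E4 against APP/E3 over diets and sexes. None of the 9 genes was called by edgeR's quasi-likelihood test (Benjamini-Hochberg adjusted p under 0.05 over all genes tested), where 6.79% of all genes were called. At an unadjusted p under 0.05 the count was 0 of 9, where 21.3% of all genes passed, with 1 by DESeq2 and 0 by limma voom, and neither tool called any after adjustment. Col1a1 came nearest, with 7.36 ± 3.12 CPM in 25 APP/E4 libraries and 10.9 ± 8.41 CPM in 27 APP/E3 libraries (SD), a log2 difference of -0.43 ± 0.22 (SE) and an edgeR adjusted p of 0.253. The groups overlapped throughout, since APP/E4 ranged from 2.24 to 14.2 CPM within the APP/E3 range of 1.70 to 34.6 CPM. The median log2 difference was -0.028 over the 9 genes and -0.00011 over all genes tested.

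The precision of this comparison differed between genes. For Pdgfrb the 95% interval of the APP/E4 to APP/E3 ratio was 0.915 to 1.07-fold and for Acta2 0.744 to 1.34-fold. It was 0.811 to 1.40-fold for Igf2, 0.645 to 1.34-fold for Col3a1 and 0.546 to 1.01-fold for Col1a1. A p above the threshold does not show that the genotypes were alike, and for each of these genes ratios within its interval remained compatible with the data.

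Within ND females, all 9 genes were lower in APP/E4 than in APP/E3, and 1 was called by edgeR, where 0.961% of all genes were called, 0.526% as lower. That gene was Col1a1, at 5.99 ± 2.12 CPM in APP/E4 and 17.8 ± 12.6 CPM in APP/E3 (SD, n = 7 each), a log2 difference of -1.58 ± 0.42 (SE) with an edgeR adjusted p of 0.0498. In the same comparison 5 of 9 genes had an unadjusted edgeR p under 0.05, against 15.8% of all genes: Col1a1, Col3a1 at -1.38 ± 0.49 (adjusted p = 0.152), Col1a2 at -0.92 ± 0.33 (0.162), Acta2 at -1.002 ± 0.38 (0.18) and Bgn at -0.70 ± 0.31 (0.256). Pdgfrb differed by -0.11 ± 0.10 on the log2 scale (edgeR adjusted p = 0.647). The 5 genes moved together between libraries, so they are not 5 independent results. The call of Col1a1 was lost when any of 37 of the 52 libraries was left out, 9 of them in the groups compared and 28 elsewhere, and those 28 gave adjusted p of 0.0507 to 0.0561. Leaving out APP/E3 ND female 3 gave -1.34 with an edgeR adjusted p of 0.156, and leaving out APP/E3 ND female 6 gave -1.33 with 0.149.

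In this comparison the call also depended on the tool. Limma voom gave -1.32 with an adjusted p of 0.139 for Col1a1, DESeq2 gave no adjusted p for it, Col3a1 or Acta2 and called 0 of the 6 others (each tool had 5 of 9 at an unadjusted p under 0.05), and the 41 libraries without the Csl-low ones gave -1.57 with an edgeR adjusted p of 0.0773. Without the 5 libraries rich in Ttr or Omp it was -1.57 with an edgeR adjusted p of 0.0463. Other edgeR settings also kept the call. The adjusted p was 0.0496 with RLE in place of TMM scaling, 0.0499 without the filter and 0.0441 without robust estimation. It was 0.0305 with the Csl class as a term, 0.0425 with the sex letter in the title as a term and 0.0264 with both.

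In the other settings of genotype no gene was called by edgeR, and 0 of 9 had an unadjusted p under 0.05 in HFD females, HFD males or ND males. The shares of all genes called there were 0.605%, 0.224% and 0.401%, and those at an unadjusted p under 0.05 were 12%, 5.39% and 11%. DESeq2 and limma voom also had 0 of 9 at an unadjusted p under 0.05 in each. In HFD males all 9 genes had a higher mean in APP/E4, with a median log2 difference of 0.37, and in ND males 7 of 9 did, with a median of 0.19. In HFD females 7 of 9 were lower, with a median of -0.18.

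Sex was compared next. All 9 genes had a positive female minus male log2 difference, with a median of 0.29 against 0.0027 over all genes tested, and edgeR called 0 of 9, where 4.42% of all genes were called. At an unadjusted p under 0.05, 1 of 9 passed by edgeR, against 18.9% of all genes, 1 by DESeq2 and 0 by limma voom, and neither of these tools called any after adjustment. That gene was Dcn, with a mean of 20.2 ± 14.4 CPM over the 29 females, and of 12.5 ± 7.52 CPM over the 23 males (SD), a log2 difference of 0.66 ± 0.26 (SE) with an unadjusted edgeR p of 0.0132 and an adjusted p of 0.134. Females ranged from 3.45 to 56.9 CPM and males from 3.79 to 37.4 CPM, so that the sexes overlapped almost fully. Without APP/E3 ND male 3, whose Dcn of 37.4 CPM was the highest among males and whose Omp was 277 CPM, Dcn was called by edgeR at 0.81 with an adjusted p of 0.044.

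The 11 Csl-low libraries were all from females, so sex was also compared without them. Over the 41 other libraries, 7 of 9 genes had an unadjusted edgeR p under 0.05, against 20.7% of the 15222 genes tested in that fit. Of the 9 genes 0 were called there, where 5.18% of all genes were, and the smallest adjusted p was 0.0878. Most of the 9 genes moved together between libraries, so the 7 that passed unadjusted are not independent results. The smallest adjusted p was that of Col1a1, at a log2 difference of 0.64 where all 52 libraries gave 0.38. Col3a1 was at 0.62 against 0.36, Igf2 at 0.52 against 0.34, Col1a2 at 0.365 against 0.14 and Pdgfrb at 0.15 against 0.050. Dcn, at 0.51 (edgeR adjusted p = 0.212) against 0.66, was the only 1 of the 9 with a smaller difference. With the Csl class as a term in the model, edgeR called 0 of the 9 and 655 of all genes. Dcn was at 0.52 (edgeR adjusted p = 0.333), again the only 1 that was smaller. Only male libraries lacked a sex letter in the title, and this was also tried as a term. EdgeR then called 18 genes for sex, where it called 671 without the term, and 0 of the 9. Dcn was at 0.46 (edgeR adjusted p = 0.741). The calls of other cell types given next come from all 52 libraries, the Csl-low ones included. They were not tested with the title letter or the Csl class as a term, or without the Csl-low libraries. The choroid plexus list, whose 4 libraries with Ttr above 100 CPM were all from females, had 3 of its 13 tested genes called higher in females, where 2.91% of all genes were. Its summed level was 207.7 to 3827 CPM over female libraries, against 238.6 to 369.3 CPM over male ones. Among the other cell types, 9 of 13 microglial and 3 of 10 astrocyte genes were called higher in females, and 3 of 8 blood genes lower, where 1.51% of all genes were called lower. Summed levels were 570.6 to 964.9 CPM in female and 529.2 to 902.0 CPM in male libraries for microglia, and 4922 to 7619 CPM in female and 4781 to 8148 CPM in male libraries for astrocytes. Blood genes summed to 1.12 to 324.8 CPM in female and 2.32 to 107.4 CPM in male libraries. All 18 endothelial genes had a positive estimate, with 7 at an unadjusted edgeR p under 0.05 and 0 called. Of 11 striatal, 10 olfactory, 10 neuronal and 10 oligodendrocyte genes 0 were called, and the part of these cells in the sex comparison was not tested. Without the 5 libraries rich in Ttr or Omp, the female minus male log2 difference of Igf2 was 0.21, and it was 0.34 with them.

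Within APP/E3 ND mice, 7 of 9 genes had an unadjusted edgeR p under 0.05 for females against males, against 6.55% of all genes, and 0 were called, where 0.125% of all genes were. DESeq2 had 7 and limma voom 5 at an unadjusted p under 0.05, and neither called any. The smallest edgeR adjusted p was 0.488, for Col3a1, with a mean of 6.60 ± 4.80 CPM over 7 females, against 2.51 ± 1.92 CPM over 6 males (SD), a log2 difference of 1.38 ± 0.51. Within APP/E4 mice the median log2 difference of females from males was -0.034 on HFD and -0.31 on ND, with 0 of 9 genes at an unadjusted p under 0.05 in each by edgeR, DESeq2 or limma voom. On HFD 0.079% of all genes were called and 7.84% passed unadjusted, and on ND 0.0921% and 4.85%. Within APP/E3 HFD mice all 9 genes had a positive estimate and Dcn alone passed unadjusted, at 1.25 ± 0.50 with an edgeR adjusted p of 0.187, where 0.638% of all genes were called and 17.7% passed unadjusted. Whether the sexes differed otherwise in APP/E4 than in APP/E3 was tested as an interaction: 6 of 9 genes had an unadjusted edgeR p under 0.05, against 5.11% of all genes, and 0 were called, where 0.00658% of all genes were. DESeq2 had 6 and limma voom 3 at an unadjusted p under 0.05, with none called. Acta2 had the smallest p, with an interaction of -1.17 ± 0.40 on the log2 scale, an unadjusted edgeR p of 0.00496 and an adjusted p of 0.948. The genes that passed unadjusted in APP/E3 ND mice and in the interaction moved together between libraries, so neither count is of independent results.

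Diet was compared last. HFD against ND, over genotypes and sexes, called 0 of 9 genes and 0% of all genes by edgeR, and 0 of 9 had an unadjusted p under 0.05, where 9.2% of all genes did. DESeq2 and limma voom also had 0 of 9 at an unadjusted p under 0.05. After adjustment limma voom called 0 of 9, and DESeq2 gave an adjusted p for only 2 of the 9, Igf2 and Pdgfrb, and called neither. Igf2 had the smallest edgeR adjusted p, 0.827, with 75.7 ± 39.1 CPM in 26 HFD libraries and 67.7 ± 32.1 CPM in 26 ND libraries (SD) and a log2 difference of 0.18 ± 0.19. It was 0.050 without the 5 libraries rich in Ttr or Omp. The 95% interval of the HFD to ND ratio was 0.912 to 1.06-fold for Pdgfrb, 0.782 to 1.27-fold for Col1a2 and 0.601 to 1.25-fold for Col3a1. Within APP/E4 females, APP/E4 males and APP/E3 males edgeR called 0 of 9 genes and 0% of all genes. There 0 of 9 had an unadjusted p under 0.05 by edgeR, DESeq2 or limma voom, where 7.9%, 3.65% and 13.6% of all genes did. Within APP/E3 females 0 of 9 were called, where 0.0263% of all genes were, and 1 had an unadjusted edgeR p under 0.05, where 4.69% did: Col1a1 at -0.80 ± 0.39, with an edgeR adjusted p of 1. DESeq2 had 1 and limma voom 0 unadjusted there. The interactions of diet with genotype and with sex called 0 of 9 genes and 0% of all genes by edgeR. By each of the 3 tools 0 of 9 had an unadjusted p under 0.05 in these interactions, where 9.97% and 7.84% of all genes did by edgeR. In the authors' deposited table none of the 9 genes had a p-value under 0.05 for diet, the smallest being 0.447 for Col3a1. Its coefficients share the sign of HFD minus ND in 6.51% of genes and so run the other way in most. Of the 9 genes, only Col1a2, Dcn and Bgn shared the sign. Their deposited coefficients were -0.066, -0.038 and -0.020, and their log2 differences here -0.0037, -0.083 and -0.0047.

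**Figure D4:**
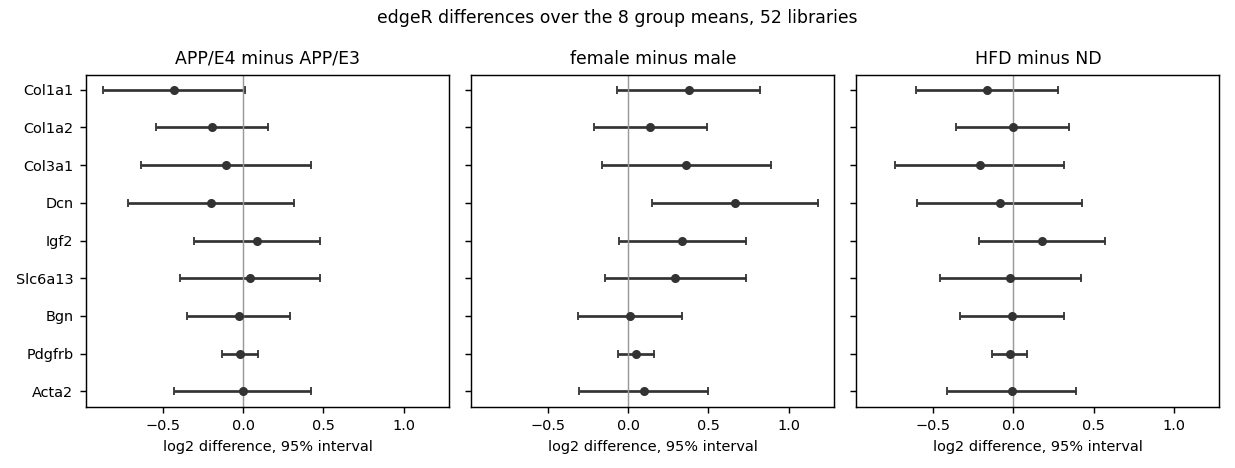
Points are edgeR log2 differences and bars their 95% intervals, for APP/E4 minus APP/E3, female minus male and HFD minus ND over 52 libraries. Intervals of Pdgfrb are the narrowest. Apart from Dcn in the sex comparison, at 0.66 with an adjusted p of 0.134, every interval includes 0.

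Other genes of the same cells were followed in lists of 53 further fibroblast genes, of which 52 were in the table and 51 tested, and 31 further mural genes, all tested. The fibroblast list summed to 617.9 CPM in APP/E3 ND male 4 and 2376 CPM in APP/E3 ND female 6, at a median of 1273 CPM. Its genes had a median biological coefficient of variation of 36.4%, against 19.4% for the mural list and 12.3% for all genes. Against the mean of Col1a1, Col1a2 and Col3a1, 37 of 51 fibroblast genes had a Pearson r above 0.5 over 52 libraries, with a median of 0.72, as a description. Pcolce, which speeds the trimming of procollagen, had 0.91, the retinoic acid enzyme Aldh1a2 0.89 and the gap junction protein Gjb2 0.88. At the other end were Dpp4 at -0.19, Cemip at 0.017 and Fbn1 at 0.026. The genes named for their r were picked after their values were seen.

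The 31 mural genes covered a wide range of r, from -0.15 to 0.83 with the collagens, -0.068 to 0.72 with Pdgfrb and -0.14 to 0.83 with Acta2, at medians of 0.38, 0.32 and 0.34. Of them 10 had r above 0.5 with the collagens, 11 with Acta2 and 5 with Pdgfrb. The smooth muscle genes did not all move alike. Tagln, a smooth muscle actin-binding protein, had r = 0.78 with the collagens and 0.77 with Acta2, the regulatory light chain Myl9 had 0.74 and 0.83, and the smooth muscle myosin Myh11 had 0.72 and 0.83. Lower values were found for Pln, a regulator of the calcium pump, at 0.47 and 0.64, the tropomyosin Tpm2 at 0.41 and 0.47, and Synpo2 at 0.16 and 0.15. The 5 genes above 0.5 with Pdgfrb were Atp13a5 at 0.72, the receptor Notch3 at 0.68, the proteoglycan gene Cspg4 at 0.58, Myl9 at 0.54 and Rgs5 at 0.51. Other genes known from pericytes were lower with Pdgfrb: Abcc9 had 0.44, the potassium channel gene Kcnj8 0.31, Higd1b 0.20, Cox4i2 0.11 and Art3 0.11. Vtn, Anpep and Ifitm1 had 0.83, 0.74 and 0.62 with the collagens, and 0.34, 0.32 and 0.21 with Pdgfrb. These correlations share libraries, depth and scaling, and the genes named here were picked after their values were seen.

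**Figure D5:**
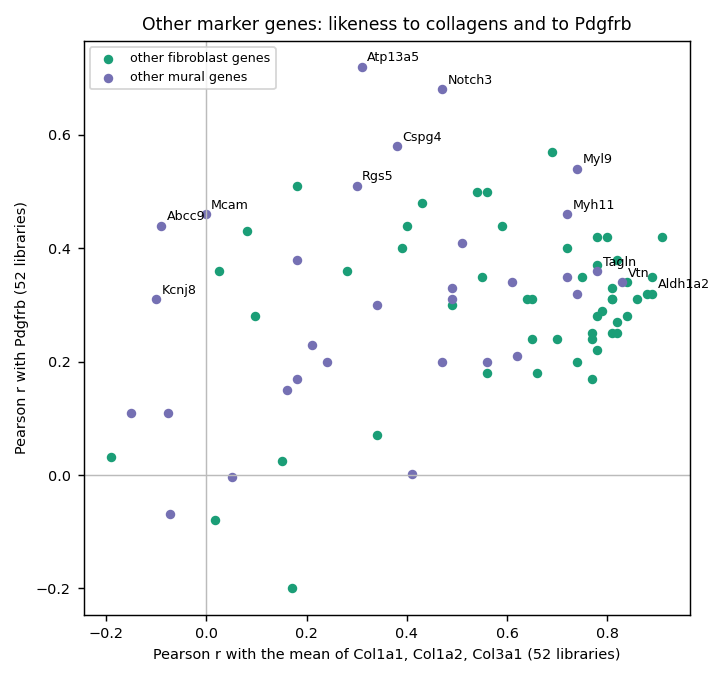
Each point is a gene of the other fibroblast (green) or other mural (violet) list, placed by its Pearson r over 52 libraries with the mean of Col1a1, Col1a2 and Col3a1 (horizontal) and with Pdgfrb (vertical). Most fibroblast genes and the smooth muscle genes Tagln, Myl9 and Myh11 lie to the right, and Atp13a5, Notch3 and Cspg4 lie at the top, at 0.72, 0.68 and 0.58 with Pdgfrb.

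In the genotype comparison 1 of the 51 other fibroblast genes was called by edgeR, in the lower direction, and 1 of the 31 mural genes, in the higher, where 3.40% and 3.39% of all genes were called lower and higher. Col6a2, a chain of type VI collagen, was at 19.9 ± 6.13 CPM in 25 APP/E4 libraries and 25.3 ± 5.55 CPM in 27 APP/E3 libraries (SD), a log2 difference of -0.32 ± 0.10 (SE) with an edgeR adjusted p of 0.0413. Mcam, an adhesion protein of mural cells and endothelium, was at 18.4 ± 3.44 CPM in APP/E4 and 15.3 ± 3.53 CPM in APP/E3, a log2 difference of 0.26 ± 0.08 with an edgeR adjusted p of 0.0405. For sex, 43 of 51 fibroblast genes had a higher estimate in females, with a median log2 difference of 0.19. Of the 51, 10 had an unadjusted edgeR p under 0.05, against 18.9% of all genes, and 0 were called, against 4.42%. Of the 31 mural genes 20 had a higher estimate in females, with a median of 0.037, 2 passed unadjusted and 0 were called. For diet 0 genes of either list were called, and 0% of all genes were. At an unadjusted edgeR p under 0.05 there were 0 fibroblast genes and 1 mural gene, against 9.2% of all genes.

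The genes most like the collagens were sought among all genes tested, by Pearson r over 52 libraries after each group's mean was subtracted. The 10 highest were Aldh1a2 at 0.92, the complement inhibitor Serping1 and Pcolce at 0.91, Mxra8 at 0.89, Cped1, the basement membrane collagen Col18a1, the scavenger receptor Colec12, Gjb2 and Aebp1 at 0.88, and the endocytic adaptor Dab2 at 0.87. The 10 most like the mean of Pdgfrb and Acta2 were the basement membrane collagen Col4a5 at 0.87, Myh11 at 0.85, Myl9 at 0.84, Col18a1 and the ferroxidase Cp at 0.82, the laminin chain Lamc3 at 0.81, elastin (Eln) and the elastic fibre protein Fbln5 at 0.80, and Kank2 and Tagln at 0.77. Only Col18a1 was in both sets of 10. Markers of other cells were set against the collagens by r without group means subtracted, where the 51 other fibroblast genes had a median of 0.72. On that scale the median was 0.27 for 18 endothelial, 0.22 for 14 choroid plexus, 0.03 for 9 blood and 0.079 for 11 striatal genes. It was 0.30 for 10 olfactory, 0.31 for 10 astrocyte, -0.04 for 13 microglial, -0.15 for 10 neuronal and -0.31 for 10 oligodendrocyte genes. Single genes went further, up to 0.69 in choroid plexus and 0.67 in astrocytes, and down to -0.74 in neurons.

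The Csl-low libraries differed from the others within groups in 22.8% of all genes by edgeR, and in 3 of the 9 here, all lower. Col1a2 was lower by a log2 difference of -0.68 ± 0.24 (SE, edgeR adjusted p = 0.0307), Bgn by -0.66 ± 0.22 (0.0208) and Pdgfrb by -0.27 ± 0.07 (0.00264). Pdgfrb was at 26.0 ± 2.83 CPM in the 11 Csl-low libraries and 31.02 ± 4.07 CPM in the 18 other female libraries (SD). Dcn alone of the 9 had a positive estimate, 0.35 ± 0.36 (edgeR adjusted p = 0.514). The ratio of Dcn to Col1a2 in CPM was 0.40 to 2.14 in the 11 Csl-low libraries and 0.257 to 1.15 in the 41 others, whose median was 0.589. It was above 1.15 in APP/E4 ND female 6 at 2.14, APP/E3 HFD female 7 at 1.96, APP/E3 ND female 7 at 1.71, APP/E3 HFD female 8 at 1.66 and APP/E4 ND female 7 at 1.31. What sets these libraries apart is not given in the labels, and its part in the levels was not tested.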

How the data were processed

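The authors deposited 1 table of raw counts per gene for 52 frontal cortex libraries (1 per animal, Illumina mRNA kit, per the labels' protocols). The submitters' processing notes name the build mm9, Subread, featureCounts, edgeR 3.14.0 and limma. No source used here gives the annotation, the strand setting or the treatment of reads matching several genes. The same deposited table holds the authors' log2 coefficient and p-value for diet.

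Counts were fitted in edgeR 4.0.16 (R 4.3.3; filterByExpr, TMM, robust quasi-likelihood, 1 mean per group, all 52 libraries), with Benjamini-Hochberg adjustment over 15195 genes in each of 18 contrasts. Log2 CPM carry a prior count of 2. The p-values of group comparisons set a difference against the spread between animals of a group. Those of the correlations come from shuffling libraries without regard to group. Over 146 pairs of libraries within groups, the chi-square per gene was 2.95 at the lowest, so none of these pairs was a duplicate. Pairs of libraries from different groups were not compared. Alternatives were DESeq2 1.42.0, limma 3.58.1 voom, other scaling and filters, and left-out libraries. Correlations of the 36 pairs were computed in numpy, with ranks from scipy 1.17.1. Other correlations were computed in R. The scripts were tested on simulated data. The 9 genes and all lists were chosen with earlier results of these data known. The text names all 9 genes, the called genes of the other fibroblast and mural lists, and the 10 genes most like each set by r, and says where others were picked after their values were seen. Promoters are from RefSeq (GRCm38.p6), and no coordinate of the counted build is printed.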

Additional observations from a re-analysis of the deposited data

Results flagged for a closer look

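Each of the 9 genes was examined in each of the 8 groups, 72 sets of values, for a library far from the rest of its group on the log2 scale, and 3 stood out. Chance gives about 1 in 20. All 3 were in APP/E4 ND females and in Csl-low libraries. In APP/E4 ND female 7, Col1a2 was at 5.85 CPM against 15.1 to 27.2 CPM in the 6 others, and Slc6a13 was at 2.97 CPM against 8.84 to 18.2 CPM. In APP/E4 ND female 6, Dcn was at 38.7 CPM against 7.68 to 15.2 CPM in the others.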

How the results depend on the processing

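The count of the 9 genes called was 0 in 17 of the 18 contrasts under every alternative other than leaving out 1 library at a time. In ND females, APP/E4 against APP/E3, it was 1 in edgeR and 0 in the 41 libraries without the Csl-low ones, 0 with limma voom and 0 with DESeq2, which gave an adjusted p for 6 of the 9 and not for Col1a1. Col1a1 had log2 differences of -1.57 (41 libraries) and -1.32 (voom). The other alternatives, single left-out libraries aside, kept the call of Col1a1. Leaving out 1 library at a time gave 0 to 1 there and 0 to 1 for sex (Dcn, without APP/E3 ND male 3). The number of correlated pairs was 35 of 36 throughout leaving out, and 33 to 36 under other scalings and group or class centring; it was 25 in the 11 Csl-low libraries alone, a setting chosen after seeing the data.

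The directions that turned were those of small differences, none of them called. For APP/E4 minus APP/E3, Slc6a13 was -0.011 with the Csl class as a term, -0.018 without the Ttr-rich or Omp-rich libraries and -0.026 with the class and the presence of a sex letter in the title as terms, and Acta2 was 0.12 without those libraries and 0.077 with voom. The last of these class fits and the omission of Ttr-rich or Omp-rich libraries were added after seeing the data. For female minus male, Bgn was -0.071 with the title letter as a term, -0.062 without those libraries and -0.032 with voom. For HFD minus ND, with the class as a term, Col1a2 was 0.053, Slc6a13 0.016, Bgn 0.045 and Acta2 0.033. In the 41 libraries Col1a2 was 0.050, Dcn 0.050, Slc6a13 0.071, Bgn 0.067, Pdgfrb 0.011 and Acta2 0.10. With class and title letter, Col1a2 was 0.050, Slc6a13 0.0087, Bgn 0.040 and Acta2 0.030. With voom Col1a2 was 0.062 and Bgn 0.019. The cause was not tested.

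Leaving out 1 library at a time, log2 differences for genotype ran from -0.087 to 0.088 for Acta2, -0.11 to 0.043 for Bgn, -0.041 to 0.00049 for Pdgfrb and -0.025 to 0.14 for Slc6a13. For sex Bgn ran from -0.079 to 0.081. For diet they ran from -0.099 to 0.063 for Acta2, -0.090 to 0.065 for Bgn, -0.048 to 0.067 for Col1a2, -0.15 to 0.064 for Dcn and -0.085 to 0.080 for Slc6a13. No paired analysis was possible because the replicate numbers were given in accession order and link no animals. The median SE of the log2 difference was 0.21 for the 9 genes and 0.058 for all genes in the genotype comparison.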

Other observations

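Pdgfrb and Acta2 were also set apart from each other in the genes most like each, a comparison chosen after their values were seen. The genes most like Pdgfrb alone, by r over 52 libraries minus group means, were Sox9 at 0.79, 5930403L14Rik at 0.76, the endothelial receptor Tie1 at 0.72, Notch3 at 0.71 and Pltp at 0.69. The rest of the 10 highest were AW011738, Atp13a5, Hspg2 and Plpp3 at 0.69 and Reck at 0.68. Sox9 and Plpp3 are genes of astrocytes, and Notch3 and Atp13a5 are in the mural list. The likeness of the astrocyte list to Pdgfrb was not tested. The genes most like Acta2 alone were Col4a5 and Myh11 at 0.84, Cp at 0.82, Myl9 at 0.81 and Col18a1 at 0.80. No gene was in the 10 highest of both.

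Fibroblast genes outside the 9, again picked after their values were seen, covered a continuous range of spread. Slc22a2 had a biological coefficient of variation of 89.3%, Slc47a1 66.2% and Foxc2 57.6%, with r of 0.78, 0.72 and 0.78 with the collagens. Moxd1 had 16.1% and Col15a1 19.8%, with r of 0.17 and 0.18. Spread and r did not always go together: Col5a1 had 39.7% with r of 0.098, and Slc22a8 had 21.4% with r of 0.80.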
